A study of Rattus norvegicus with 6 samples.

Results

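DNA replication genes encode the machinery that copies the genome in S phase, and they were followed here in the rat Achilles tendon on post-natal day 1 and a week into life, on post-natal day 7. The set held 38 genes chosen by name: factors of origin licensing, helicase activation, the polymerases, the sliding clamp and its loader, nucleotide supply, chromatin copying and G1/S control. A gene counted as measured when the platform annotation gave it a probe set of its own, and the probe set of highest mean level stood for it, which held for 35 of the 38 genes among 14217 genes on the array. Cdc6, Gins2 and Rrm2 were not analysed here.

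Each age had 3 arrays, hybridised with biotin-labelled RNA from Achilles tendons dissected under a microscope. Each array carried RNA of at least 2 animals, and the p-values therefore rest on the variation among such pools. Strain, sex and littermate relations are not stated, and the labels name no genotype and no agent for either age. The tendon regulator Scx (749 ± 147 on day 1 and 812 ± 20.8 on day 7, mean intensity ± SD, n = 3) and the tendon membrane protein Tnmd (3518 ± 1122 and 5562 ± 1091) were strongly measured at both ages. Skeletal muscle transcripts were also present at both ages, among them creatine kinase, Ckm (7312 ± 1181 and 3965 ± 1341).

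Before S phase a ring of Mcm2 to Mcm7 is loaded onto origins by Cdc6 and Cdt1, and the ring becomes an active helicase when Cdc45 and the GINS complex join it. Polymerase alpha with primase starts each strand, polymerases epsilon and delta extend it, and the clamp Pcna, placed by replication factor C, holds them on the template. Most of these genes are transcribed at the G1/S boundary under E2F factors, so their transcripts are known as markers of cycling cells, and tendon cells are known to divide early in life and rarely in the adult. In a whole tissue, fewer cycling cells and less RNA per cycling cell cannot be told apart.

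Promoters of this gene class are known for E2F binding sites, and 6 stretches are shown here. Their genes have the smallest adjusted p-values among the members called lower on day 7 whose listed promoter held an E2F word. Mcm4, Ccne2, E2f1, Cdc6 and Rrm2 had no listed promoter and were not searched. The sequences are from RefSeq on the rat assembly GRCr8, 5′ to 3′ on the strand of the gene, with the E2F word nearest the transcription start in capitals. They lie at chr1:83243149-83243199 (+) for the DNA ligase Lig1, chr13:105685922-105686005 (-) for the ubiquitin ligase adaptor Dtl and chr4:122918094-122918148 (-) for the helicase subunit Mcm2. Those of the hemimethylated DNA reader Uhrf1, of Mcm5 and of Mcm3 lie at chr9:1223047-1223134 (+), chr19:13488765-13488815 (+) and chr9:30733742-30733792 (-).
Lig1: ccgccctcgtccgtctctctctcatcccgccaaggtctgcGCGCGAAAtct
Dtl: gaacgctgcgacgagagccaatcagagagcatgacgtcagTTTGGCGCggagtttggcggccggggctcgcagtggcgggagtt
Mcm2: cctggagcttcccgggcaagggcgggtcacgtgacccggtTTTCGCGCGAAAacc
Uhrf1: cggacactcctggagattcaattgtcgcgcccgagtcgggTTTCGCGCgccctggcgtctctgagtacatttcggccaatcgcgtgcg
Mcm5: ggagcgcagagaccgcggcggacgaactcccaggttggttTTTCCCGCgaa
Mcm3: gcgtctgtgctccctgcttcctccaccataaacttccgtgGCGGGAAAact

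The words searched were TTTCCCGC, TTTCGCGC, TTTGCCGC and TTTGGCGC on both strands, from 250 bases before to 50 after each listed start. A word on one strand can overlap a word on the other, as in Mcm2, where the capitals run over 12 bases and hold 2 words. In Mcm2 the word began 14 bases before the start, in Mcm5 8 bases and in Dtl 44 bases before it, and in Lig1 20 bases after it. Of the 33 members with a promoter in the table, 17 held at least 1 word (51.5%), against 438 of 11701 genes on the array (3.74%) and 651 of all 27457 genes (2.37%). The word was held by 12 of 17 searched members called lower on day 7 and by 5 of 15 searched and measured members that were not called. Among 21 genes of mitosis 1 held an E2F word, while 13 held the CHR word TTTGAA of late cell cycle genes, against 4 of the 33 members and 1553 of the 11701 array genes. A CCAAT box lay in 19 of the 33 members, in 15 of the 21 mitosis genes and in 38.6% of array genes. These matches describe letters in a window and do not show a bound site.

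All 35 measured members had lower mean log2 values on day 7 than on day 1, as had 52.0% of all genes, and 19 of them fell at an adjusted p under 0.05 (limma, Benjamini-Hochberg over all probe sets) while 0 rose, also at an unadjusted p under 0.05. In the same comparison 3.15% of all genes were lower and 1.93% higher at that threshold, and 4.59% of the genes at least as bright as the dimmest member were lower. At an unadjusted p under 0.05, 31 of the 35 members and 17.0% of all genes were lower (limma). The median log2 change over the members, day 7 minus day 1 on the log2(intensity + 1) scale, was -0.68, and over all genes -0.01. The arrays of the ages did not overlap for 31 of the 35 members, with every day 7 array below every day 1 array, which was the case for 19.1% of all genes. The 4 members whose arrays overlapped were Pola2, Chaf1b, Slbp and E2f1.

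**Figure D1:**
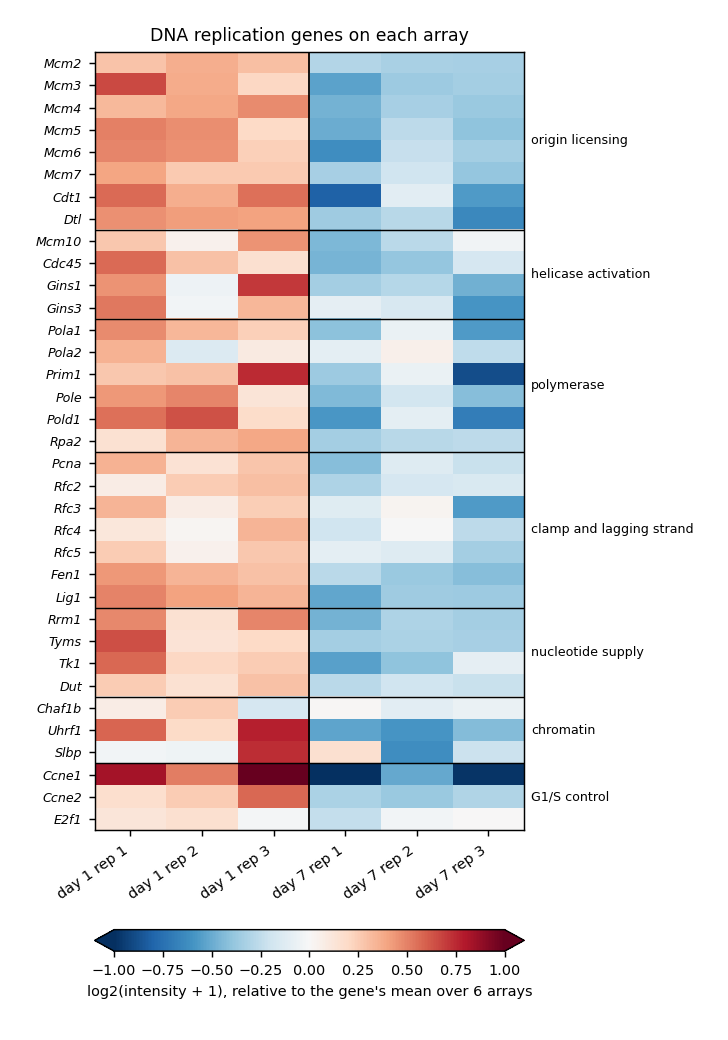
Heat map of log2(intensity + 1) for the 35 measured members on the 6 arrays, each value relative to the gene's mean over the arrays, with red above and blue below that mean. In 28 rows every day 1 column is red and every day 7 column blue, while Pola2, Chaf1b, Slbp and E2f1 overlap between the ages, Gins1, Gins3 and Rfc3 have 1 array across their mean without overlap, and Ccne1 exceeds the limits of the colour scale.

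The number of calls rested on few arrays. Calls were lost over the whole array too: without day 7 replicate 1, 0 of the 14217 genes were called lower and 4 higher (limma; 1869 and 1136 at an unadjusted p under 0.05). Without day 1 replicate 1 the count of members called lower was 0, without day 1 replicate 3 it was 5, without day 7 replicate 1 it was 0 and without day 7 replicate 3 it was 4 (limma). It was 13 without day 1 replicate 2 and 15 without day 7 replicate 2. Between 27 and 31 members had an unadjusted p under 0.05 in these 6 fits. Over the whole array 1797 to 2558 of the 14217 genes were lower at that level. All 35 members kept a value below 0, and their median change lay between -0.70 and -0.65. Single members moved more: for 11 of the 35 the largest change was over 1.5 times the smallest across these fits, namely Mcm10, Gins1, Gins3, Pola2, Prim1, Rfc3, Rfc4, Tyms, Chaf1b, Slbp and E2f1. The change of Prim1 was -1.06 when day 7 replicate 2 was left out and -0.65 when day 7 replicate 3 was, and that of Rfc3 was -0.56 and -0.27 in the same fits. For Gins1 it was -0.95 without day 1 replicate 2, and -0.57 when day 1 replicate 3 was left out. Quantile normalization, which turned the share of higher genes among all calls from 38.0% to 52.5%, left 14 members called lower and 0 higher.

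**Figure D2:**
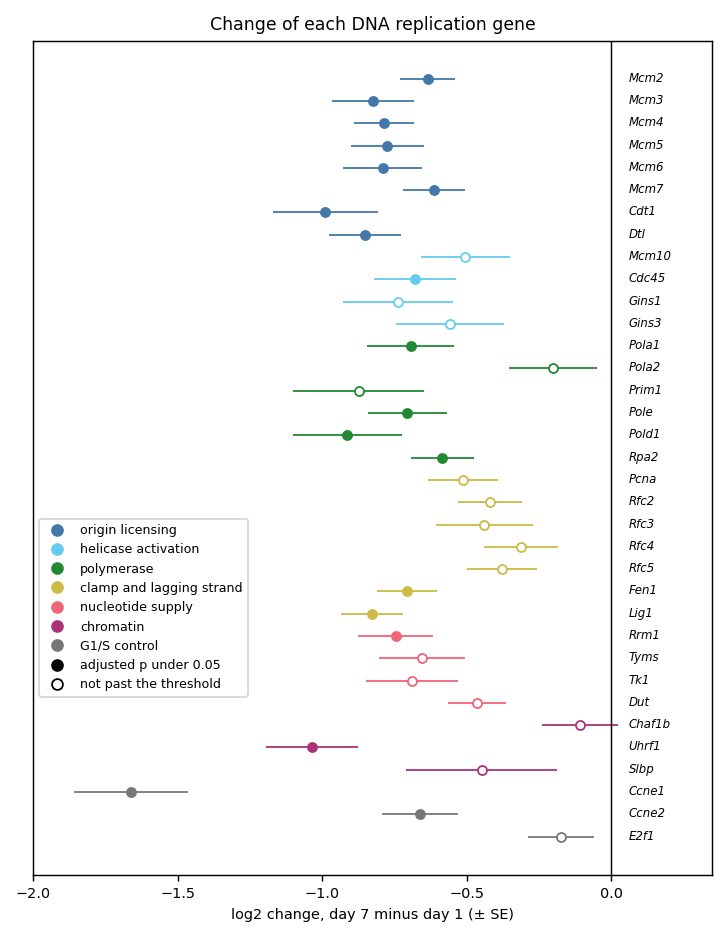
Log2 change of each member between day 1 and day 7 with its moderated standard error, in colours by step, with filled points past an adjusted p of 0.05. All 35 points lie left of 0, from -1.66 for Ccne1 to -0.11 for Chaf1b, and the 8 licensing genes are all filled.

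Origin licensing was the step in which all measured members passed the adjusted threshold, 8 of 8, with a median log2 change of -0.79. Helicase activation (4 of 4), the clamp step (7 of 7) and nucleotide supply (4 of 4) also had lower day 7 values without overlap in all measured members. All of these had an unadjusted p under 0.05 (limma). Of the 8 licensing members, 7 were called without either array numbered 2 alone, and 0 when the first array of either age was left out. The count was 3 without the third array of day 1 and 2 without that of day 7 (limma; 8 at an unadjusted p under 0.05 in each). Mcm4, a subunit of the helicase ring, read 333, 348 and 370 on day 1 and 192, 211 and 205 on day 7. The ages were apart by more than the spread within either of them, and Mcm4 was 1.72-fold lower on day 7 (log2 change -0.79 with an SE of 0.10; limma adjusted p = 0.0154). Its partner Mcm2 read 309, 325 and 313 on day 1 and 206, 201 and 201 on day 7. The SD within an age was 8.27 and 2.72 intensity units for Mcm2, among means of 316 and 203, and it fell by 0.64 log2 units (SE 0.10; limma adjusted p = 0.0216).

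The 6 ring subunits, which act as a hexamer with 1 copy of each, fell by similar amounts, between -0.61 for Mcm7 and -0.82 for Mcm3, with adjusted p-values from 0.0154 to 0.0303. Mcm5 fell 1.71-fold and Mcm6 1.73-fold. The paralogs Mcm8 and Mcm9, which work in meiosis and break repair rather than in the ring, had log2 changes of -0.08 and 0.02 at low mean intensities of 8.84 and 19.5 on day 1. The origin recognition complex, on which the ring is loaded, was not among the members, and of its 6 subunits Orc6 alone fell (log2 change -0.70; limma adjusted p = 0.0456). Orc2, Orc3, Orc4 and Orc5 had changes from -0.58 to -0.15, while Orc1 read between 3.55 and 5.57, near the negative control probe sets (3.74 to 4.76), so that its change has no reliable size. Whether the ring and the recognition complex differed was not tested.

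Cdt1, the loader of the ring, read 129, 112 and 127 on day 1 and 48.9, 80.4 and 58.1 on day 7. Its largest day 7 value came from replicate 2 and still lay below the day 1 arrays, and Cdt1 was 1.99-fold lower (SE 0.18; adjusted p = 0.0328). Dtl, the adaptor that marks Cdt1 for destruction once replication has begun, read 237, 231 and 228 on day 1 and 135, 142 and 110 on day 7. The loader and its destruction adaptor were both lower on day 7, and Dtl fell by 0.85 log2 units (SE 0.12; adjusted p = 0.0207). Geminin, Gmnn, the protein that binds and blocks Cdt1, also fell (1.90-fold; adjusted p = 0.0470).

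Helicase activation had 1 called member of 4 and a median log2 change of -0.62, and 0 were called after quantile normalization, with a pseudocount of 16 or with the mean of probe sets, and without any single array other than day 1 replicate 2 (limma; 3 or 4 at an unadjusted p under 0.05). Cdc45, which rides with the ring, read 201, 166 and 152 on day 1 and 97.8, 103 and 120 on day 7. The ages did not overlap, and Cdc45 was 1.60-fold lower (SE 0.14; adjusted p = 0.0452). Its probe sets were not alike: another fell by 0.84 log2 units (adjusted p = 0.0298), a dimmer one changed by -0.60 (adjusted p = 0.187), and the dimmest, between 5.27 and 7.82 on all arrays, changed by 0.15 (adjusted p = 0.541).

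Gins1, a subunit of the GINS complex, read 74.7, 52.4 and 89.4 on day 1 and 42.6, 44.4 and 38.7 on day 7. The wide spread lay on day 1, and its log2 change of -0.74 (SE 0.19) did not pass (adjusted p = 0.0743, and 0.0316 without day 1 replicate 2). Gins3 read 50.04, 33.7 and 43.5 on day 1 and 32.3, 30.6 and 22.5 on day 7, with a change of -0.56 (SE 0.19; adjusted p = 0.135). Mcm10, which links the helicase to polymerase alpha and was the dimmest of the step, read 31.0, 26.3 and 35.2 on day 1 and 18.4, 21.1 and 24.9 on day 7. Its groups touched closely without overlap, and its change was -0.50 (SE 0.15; adjusted p = 0.110). The fourth GINS subunit Gins4, which is no member, fell 1.74-fold (adjusted p = 0.0233).

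Of the 6 polymerase genes, with which the single-strand binding protein Rpa2 was grouped, 4 fell, with a median log2 change of -0.70. This count was 1 after quantile normalization and 1 with a pseudocount of 16. It was 3 without day 7 replicate 2 and 0 without any other single array (limma; 5 at an unadjusted p under 0.05 in each). Pole, the catalytic subunit of the leading strand polymerase epsilon, read 51.6, 53.6 and 41.6 on day 1 and 27.6, 33.1 and 27.9 on day 7. All day 7 values lay below the lowest day 1 value, and Pole was 1.63-fold lower (SE 0.14; adjusted p = 0.0381). Pold1, the catalytic subunit of polymerase delta, read 154, 164 and 119 on day 1 and 69.7, 97.7 and 64.6 on day 7. It had the largest called change of the step, -0.91 (SE 0.19; adjusted p = 0.0440).

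Rpa2, which coats exposed single strands, read 178, 203 and 210 on day 1 and 127, 133 and 134 on day 7. The day 7 arrays were nearly equal, and Rpa2 fell by 0.58 log2 units (SE 0.11; adjusted p = 0.0346). Polymerase alpha works in a complex with primase. Pola1, its catalytic subunit, was 1.62-fold lower (adjusted p = 0.0492), and its regulatory partner Pola2 read 197, 141 and 164 on day 1 and 144, 160 and 130 on day 7. The Pola2 arrays overlapped, and its change of -0.20 had a 95% interval from -0.55 to 0.15 (limma adjusted p = 0.478). The difference between Pola1 and Pola2 was not tested. The primase Prim1 had a change of -0.87 with a wide error (SE 0.23; adjusted p = 0.0751), from a range of 263 to 367 on day 1 and of 117 to 208 on day 7.

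The clamp and lagging strand step had 2 called members of 7, and the smallest median change of the 7 steps, -0.44, close to that of chromatin (-0.45). The count was 0 without the first array of either age, 1 without the third and 2 without the second (limma; 4 to 7 at an unadjusted p under 0.05). Pcna, the sliding clamp and the brightest member, read 1339, 1166 and 1279 on day 1 and 785, 966 and 904 on day 7. Its arrays did not overlap, but its 1.43-fold difference (SE 0.12) did not pass (adjusted p = 0.0608). It passed in 4 of 15 alternatives, among them array weights (0.0319).

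The 4 small subunits of replication factor C, which opens the clamp and sets it on DNA, had changes from -0.44 for Rfc3 to -0.31 for Rfc4, and none was called, with 4 of 4 at an unadjusted p under 0.05. Rfc4 read 112, 105 and 131 on day 1 and 90.1, 103 and 85.9 on day 7. The highest day 7 array lay just below the lowest day 1 array, which was 1.02 times as bright, and the adjusted p was 0.206. The interval of the Rfc4 change ran from -0.61 to -0.02. The changes of Rfc2 and Rfc5 were -0.42 (adjusted p = 0.0827) and -0.38 (0.124), and the large subunit Rfc1, no member, had a change of -0.46 (0.0694).

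Both enzymes that finish lagging strand fragments fell. Lig1, the ligase that seals them, read 214, 200 and 192 on day 1 and 105, 118 and 117 on day 7. No array lay between 118 and 192, and Lig1 was 1.78-fold lower (SE 0.11; adjusted p = 0.0142), with a further probe set 1.79-fold lower (adjusted p = 0.0425). Fen1, the nuclease that trims the flap ahead of the ligase, read 115, 108 and 105 on day 1 and 70.6, 65.9 and 63.4 on day 7. Its spread was small at both ages, and it was 1.63-fold lower (SE 0.10; adjusted p = 0.0207). Whether Lig1 and Fen1 differed from the clamp loader was not tested.

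**Figure D3:**
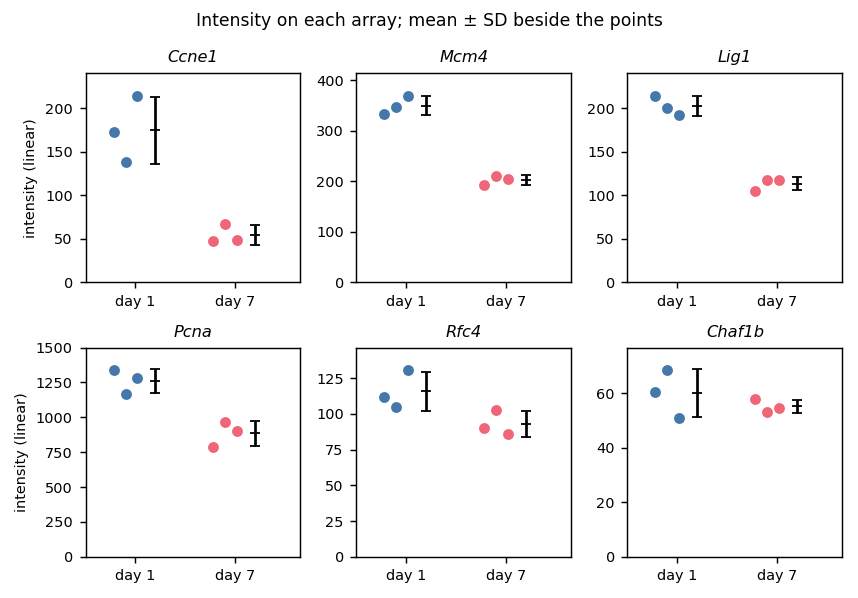
Intensity on a linear scale, starting at 0, of 6 members on the 3 arrays of day 1 (blue) and of day 7 (red), with mean ± SD beside the points. Ccne1, Mcm4 and Lig1 are far apart between the ages, Pcna and Rfc4 are separated by a smaller step, and the Chaf1b arrays overlap.

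Nucleotide supply had 1 called member of 4, and a median change of -0.67. The count was 4 with the filter on dim probe sets, the mean of probe sets or array weights. It was 1 without the second array of either age and 0 without any other single array (limma; 4 at an unadjusted p under 0.05 in each). Rrm1, the large subunit of ribonucleotide reductase, which makes deoxynucleotides, read 309, 246 and 311 on day 1 and 159, 179 and 175 on day 7. Replicate 2 was the lowest day 1 array and still 1.38 times the highest day 7 array, and Rrm1 was 1.68-fold lower (SE 0.13; adjusted p = 0.0293). The other 3 lay just short of the threshold. Dut, the dUTPase that keeps uracil out of DNA, read 673, 627 and 693 on day 1 and 469, 492 and 484 on day 7. Its arrays were tight at both ages, and the change of -0.46 (SE 0.10) had an adjusted p of 0.0502, and passed in 6 of 15 alternatives.

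Tyms, the thymidylate synthase, read 65.3, 45.6 and 47.7 on day 1 and 32.6, 33.1 and 32.7 on day 7. The day 7 arrays were almost identical while replicate 1 stood above the other day 1 arrays, and the change was -0.65 (SE 0.15; adjusted p = 0.0551). Tk1, the cytosolic thymidine kinase of S phase cells, read 235, 182 and 188 on day 1 and 108, 119 and 148 on day 7. Its change was -0.69 (SE 0.16; adjusted p = 0.0575), and another of its probe sets, dimmer on average, fell by 0.95 log2 units (adjusted p = 0.0279). With the mean of the probe sets Tk1 passed (adjusted p = 0.0162).

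Among the 3 chromatin genes Uhrf1 fell, and the others had overlapping arrays. Uhrf1 was not called without the first or the third array of either age (limma), and it passed in 10 of 15 alternatives. Uhrf1, which recruits the maintenance methyltransferase to new DNA, read 138, 105 and 158 on day 1 and 63.3, 60.4 and 67.8 on day 7. The day 7 values were close together below the scattered day 1 values, and it was 2.05-fold lower (SE 0.16; adjusted p = 0.0226). The methyltransferase itself, Dnmt1, which is no member, was 1.62-fold lower (adjusted p = 0.0222). Chaf1b, a subunit of the histone chaperone that follows the fork, read 60.5, 68.5 and 51.1 on day 1 and 57.9, 53.2 and 54.7 on day 7. Its change was -0.11 (95% interval -0.41 to 0.19; limma adjusted p = 0.669), the smallest of the members, while the large chaperone subunit Chaf1a fell 1.81-fold (adjusted p = 0.0326). The 2 subunits were not tested against each other.

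Slbp, the binding protein of histone mRNA, read 27.5, 27.2 and 47.4 on day 1 and 31.4, 17.8 and 24.0 on day 7. Day 1 replicate 3 stood alone, and the change of -0.45 (SE 0.26) had an adjusted p of 0.359. The other 2 Slbp probe sets read between 4.11 and 6.21 on the 6 arrays, near the negative control level, with changes of 0.02 and 0.11.

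G1/S control held the largest change of the members. Ccne1, cyclin E1, which activates Cdk2 to start S phase, read 173, 138 and 214 on day 1 and 47.7, 67.4 and 48.3 on day 7. The lowest day 1 array was 2.04 times the highest day 7 array, and Ccne1 was 3.16-fold lower (SE 0.20; limma adjusted p = 0.0141, and a log2 change between -1.82 and -1.50 without 1 array). Cyclin E2, Ccne2, read 67.4, 71.5 and 89.7 on day 1 and 47.9, 46.1 and 48.4 on day 7. The day 7 arrays were almost level, and it was 1.58-fold lower (SE 0.13; adjusted p = 0.0395), while its dimmer probe set, between 13.8 and 18.2, had a change of 0.00 (adjusted p = 0.997). Ccne2 passed in 4 of 15 alternatives and Ccne1 in 12.

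E2f1, the activating transcription factor of the pathway, read 88.1, 90.6 and 79.8 on day 1 and 68.6, 79.2 and 81.3 on day 7. The ages overlapped, and the change was -0.17 (95% interval -0.44 to 0.09; limma adjusted p = 0.421). Of 14 measured genes of the E2F and retinoblastoma families that are no members, 2 fell and 0 rose. At an unadjusted p under 0.05 (limma), 10 had lower values, against 17.0% of all genes, and 1 had a higher value. Both that fell are atypical repressors, themselves E2F targets: E2f7 was 2.05-fold lower (66.1, 56.5 and 51.3 against 26.4, 28.5 and 28.1; adjusted p = 0.0141) and E2f8 2.23-fold (adjusted p = 0.0186). Mybl2, a late target that feeds the mitotic programme, had a change of -0.64 (adjusted p = 0.0669), and the pocket proteins Rbl1 and Rbl2 had changes of -0.40 and 0.47 (adjusted p = 0.0831 and 0.0909).

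The rest of the replication pathway was covered by a further 43 measured genes of 49 listed by function, of which 13 fell and 0 rose, with a median log2 change of -0.48. Without an array the count of falls lay between 0 (without day 7 replicate 1) and 12, with 25 to 27 at an unadjusted p under 0.05. It was 1 without day 1 replicate 1, 5 without day 1 replicate 3, 8 without day 7 replicate 2 and 2 without day 7 replicate 3. Wdhd1, the adaptor that ties the helicase to polymerase alpha, read 83.4, 102 and 90.2 on day 1 and 45.8, 50.03 and 47.4 on day 7. It was 1.90-fold lower (SE 0.11; adjusted p = 0.0141). Timeless, of the fork protection complex, was 1.81-fold lower (adjusted p = 0.0181), the delta subunit Pold2 1.70-fold (0.0190) and the fork factor Donson 1.70-fold (0.0205). Besides these and Orc6, Gmnn, Gins4, Dnmt1 and Chaf1a, the genes that fell were Topbp1, an activator of origin firing, Pole2, Dscc1, of an alternative clamp loader, and the topoisomerase Top2a (2.24-fold lower; adjusted p = 0.0207). Of the 43 genes, 38 had values below 0. Fam111a, a protease that works at replication forks, had the largest positive change, 0.87 (SE 0.45; adjusted p = 0.311), with 122 on day 1 replicate 3 against 377 to 597 on the other 5 arrays. The small polymerase subunits Pole4 and Pold4 had positive changes, 0.13 and 0.25, short of the threshold (adjusted p = 0.558 and 0.256).

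Several of these enzymes have counterparts or related genes that work mainly outside S phase, for example in mitochondria or in repair. Of 12 such counterparts measured, 0 fell and 1 rose, with a median change of -0.09 (limma; 3 lower and 1 higher at an unadjusted p under 0.05). Over all genes, 3.15% were called lower and 1.93% higher, and 17.0% were lower at an unadjusted p under 0.05. Samhd1 and Dnmt3b among them were dim, between 9.07 and 14.1 and between 8.93 and 12.3. The one that rose was Lig3, the ligase of mitochondria and of break repair, which read 75.1, 65.2 and 83.2 on day 1 and 144, 117 and 111 on day 7. Its arrays did not overlap, in the direction opposite to Lig1, and it was 1.65-fold higher (SE 0.14; limma adjusted p = 0.0409). Lig3 passed in 5 of 15 alternatives. The largest negative change was that of Polg, the polymerase that copies mitochondrial DNA, which read 136, 119 and 103 on day 1 and 73.9, 89.3 and 86.8 on day 7. Its arrays did not overlap, and its change of -0.51 (SE 0.14) did not pass (adjusted p = 0.0876). Dck, the deoxycytidine kinase of nucleotide salvage, and the topoisomerase Top2b also had lower values on day 7 without overlap, with changes of -0.31 (adjusted p = 0.161) and -0.27 (0.177). Such a lack of overlap, seen in 3 of the 12 counterparts, was the case for 19.1% of all genes. The mitochondrial thymidine kinase Tk2, the repair polymerase Polb and the de novo methyltransferase Dnmt3a had overlapping arrays, with changes of 0.19, -0.06 and -0.01. Whether the counterparts differed from the S phase enzymes was not tested.

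**Figure D4:**
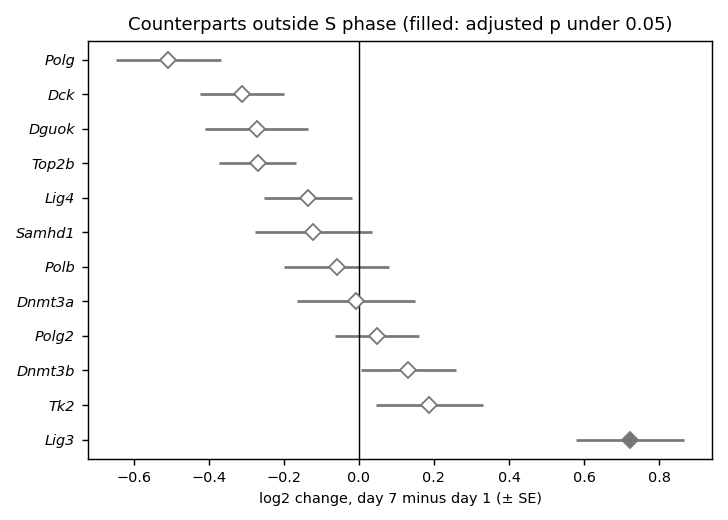
Log2 change with SE of all 12 measured counterparts that work outside S phase, with the point filled where the adjusted p was under 0.05. The values run from -0.51 for Polg to 0.72 for Lig3, the one filled point, and 8 of the 12 lie below 0.

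Mitosis genes, which follow replication in the same cells, were lower as well, with 16 of 22 measured genes called, 0 higher and a median change of -0.91. As deviations from the 6-array mean, the mitosis median stood at 0.73, 0.38 and 0.22 on day 1 replicates 1, 2 and 3. The replication median stood at 0.43, 0.25 and 0.29. Replicate 1 was thus highest in both lists. The order of replicates 2 and 3 differed, but the replication medians of these arrays lay closer than the SD of that median between arrays of an age, 0.07. On day 7 the replication median stood at -0.35, -0.26 and -0.34. Day 1 replicate 1 was the highest day 1 array for 16 of the 35 members and replicate 3 for 14, and day 7 replicate 2 was the highest day 7 array for 20.

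**Figure D5:**
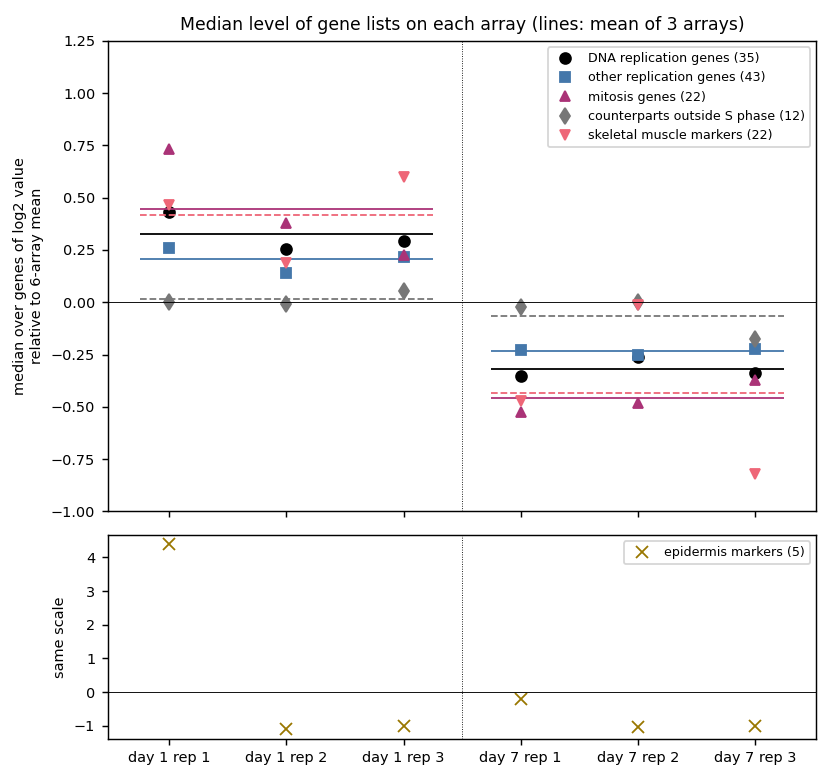
Median over the genes of each list of the log2 value relative to the 6-array mean, for each array, with lines at the mean of 3 arrays. The replication genes stand at 0.25 to 0.43 on day 1 and at -0.35 to -0.26 on day 7, the muscle markers spread more widely, and the epidermis markers in the lower panel stand high on day 1 replicate 1 (4.40).

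Transcripts of other cell types moved with age or stood out on an array. Of 22 measured skeletal muscle markers 6 fell and 1 rose, and their summed intensity ranged from 69509 to 86673 on day 1 and from 44236.5 to 63635.5 on day 7. The muscle median was 0.46, 0.19 and 0.60 on the day 1 arrays and -0.47, -0.01 and -0.82 on the day 7 arrays. Myog, of differentiating myoblasts, was among the falls (1142 ± 350 to 371 ± 155; adjusted p = 0.0338). The 1 muscle marker that rose was Myh2 (136 ± 103 to 772 ± 239; limma adjusted p = 0.0277). Epidermis markers, 5 of 8 measured, summed to 4868.5 on day 1 replicate 1 and to 101 to 211 on the other 5 arrays, with 0 called. Without that array the median change of the replication genes was -0.65, with 0 members called lower and 27 at an unadjusted p under 0.05 (limma). Of 7 erythroid markers 0 were called, and their sum ranged from 8221 to 14911 on day 1 and from 7018 to 13781 on day 7. Markers of fat cells went the other way, with 9 of 12 higher on day 7 and 0 lower, and summed to 1627 to 1923 on day 1 and to 3295 to 7076 on day 7. Adipoq, the fat cell hormone adiponectin, had a mean of 10.6 on day 1 and 349.9 on day 7 (adjusted p = 0.0040). Of 8 cartilage markers 2 rose, with sums of 634 to 1593 and 1720 to 3438, and of 7 nerve markers 1 rose and 1 fell, with sums of 1893 to 2233 and 2263 to 8856. Of 3 measured neutrophil markers 1 fell, S100a9 (38.9, 60.8 and 164 on day 1 and 7.48, 16.4 and 12.3 on day 7; adjusted p = 0.0365), and the sums of 59.9 to 222 on day 1 and 27.5 to 35.4 on day 7 did not overlap. Of 7 macrophage markers 1 rose and 0 fell, with overlapping sums of 1278 to 1857 and 1240 to 1482, and of 7 endothelial markers 1 rose and 0 fell, with sums of 1800.1 to 2381 and 2097 to 2492. Tendon markers moved as well: of 10 measured, 2 rose and 1 fell. Their sums of 27621.5 to 45798.4 on day 1 and 48436.2 to 63083.8 on day 7 did not overlap. The part of tendon, muscle, skin, blood, neutrophil, macrophage, endothelial, fat, cartilage or nerve cells in the replication changes was not tested.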

How the data were processed

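Each of the 6 pools was hybridised to 1 Affymetrix Rat Genome 230 2.0 array. The table the authors deposited gives a linear intensity per probe set. MAS5 and RMA are named in the submitters' processing notes with no role, so background correction and scaling are unknown here. The 75th percentile was 94.3 to 95.9 on the day 1 arrays and 84.1 to 91.8 on day 7, while array medians were nearly level at 20.5 to 21.1. The upper part of the distribution was thus lower on day 7, and the cause was not tested.

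Values were taken as log2(intensity + 1). After removal of 57 control probe sets, 31042 were fitted with limma 3.58.1 in R 4.3.3 (lmFit, eBayes; two-sided), and p-values were adjusted by Benjamini-Hochberg across them. The platform annotation named 1 gene for 20826 probe sets, several for 436 and none for 9780, and 20758 matched RefSeq's GRCr8 gene table by identifier. Changes are day 7 minus day 1, and each SE is the moderated one in log2 units. The fit was tested on simulated intensities. Members, lists and alternatives were chosen with earlier results of these data known. Array values are printed, in each of the 7 steps, for up to 3 members with the smallest adjusted p, the one with the largest, and those whose probe sets differ in direction. Others were added for their roles after their values were seen. Negative control (trp) probe sets read 3.74 to 4.76, against at least 17.8 for each member.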

Additional observations from a re-analysis of the deposited data

How the results depend on the processing

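Besides the values as deposited, 15 alternatives were run. The count of members called lower kept within 1.5 times of 19 under both other scalings, the filter on dim probe sets, the mean of probe sets, the intensity trend with robust variances, array weights and a pseudocount of 16 (14 to 24), though the polymerase step fell from 4 to 1 under quantile normalization and under that pseudocount, and 0 members were called higher in any of the 15 (limma). Without 1 array the count of members lower ranged from 0 to 15 and that of the other replication genes from 0 to 12, and without both arrays numbered 2 they were 10 and 8. The other replication genes called lower were 8 after quantile normalization and 22 with array weights. The median member change was -0.58 after quantile normalization and -0.58 with a pseudocount of 16, which compresses low values by its construction, and between -0.70 and -0.65 without 1 array. With the replicate number as a replicate block, 0 members and 0 other replication genes were called, with 30 and 25 lower at an unadjusted p under 0.05. Whether the numbers pair the pools is not stated. Same-numbered arrays correlated at 0.05, -0.25 and -0.14 in their deviations from the group means, and differently numbered ones between -0.11 and 0.25. So few correlations cannot settle whether pools of the same number shared a litter or a batch. Of the changes of single members, Chaf1b alone reversed, to 0.017 without both arrays numbered 2, and the cause was not tested. A fit without 1 array has fewer samples. With all arrays 448 genes were called lower, without 1 array between 0 and 382, and without both arrays numbered 2 it was 609 (limma). What part the number of samples had in the lost calls was not tested. Values near the negative control level, such as those of Orc1, limit any fold change.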
